A study of Mus musculus with 1 sample.

Results

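The 10 genes described here encode subunits of the BAF complex, the mammalian SWI/SNF chromatin remodeler. They were chosen by symbol from the 51912 genes listed in the UMI table and comprise Actl6a, Phf10, Dpf2 and Ss18, whose products are subunits of the progenitor complex, Actl6b, Dpf1, Dpf3 and Ss18l1, whose products are subunits of the neuronal complex, and the alternative ATPases Smarca2 and Smarca4. sc-RNA Seq had been performed on papain-digested cerebral cortex of WT C57BL/6 mice at P0 (postnatal day 0) with a 10x Chromium 3′ kit, in which each captured transcript is counted once by its unique molecular identifier (UMI). The deposited WT table is 1 library of 11062 cells and 90346034 UMIs (median 7196 UMIs per cell), and how many animals it pools is not given in the sources used here. The series' design text speaks of triplicates, and whether this table pools them is not stated. The SERPINA3 knock-in group (SERPINA3f/+;Nestin-Cre) that the series names was not analysed here.

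The BAF complex uses ATP hydrolysis to slide or evict nucleosomes and so changes which DNA is open to transcription factors. It is built around 1 ATPase, BRM (Smarca2) or BRG1 (Smarca4), to which core and accessory subunits are added from small gene families. When neural progenitors leave the cell cycle, several of these positions are known to be refilled: the actin-related BAF53A (Actl6a) gives way to BAF53B (Actl6b), the PHD-finger proteins BAF45A (Phf10) and BAF45D (Dpf2) to BAF45B (Dpf1) and BAF45C (Dpf3), and SS18 (Ss18) to CREST (Ss18l1). The forms of a family are taken here as alternatives for the same place, although Phf10 also belongs to the related PBAF complex. On that reading, the share of a family's transcripts that comes from the neuronal form measures how far the exchange has gone at the RNA level. For the PHD-finger family this measure is looser.

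To follow the exchange, cells were gated by the summed UMIs of marker genes, none of which is a BAF subunit. This gave 229 dividing cells (Mki67, Top2a and other mitotic genes), 318 nondividing radial glia or astrocytes (Slc1a3, Aldoc, Sox9), 194 nondividing cells of the oligodendrocyte lineage (Olig1, Olig2, Pdgfra), 291 newborn neurons (Eomes, Neurog2, Neurod1, Sstr2), 6099 excitatory neurons (Neurod2, Neurod6 and other genes) and 368 inhibitory neurons (Gad1, Gad2, Dlx1). The newborn group may include intermediate progenitors below the cut for dividing cells. Eomes is a factor of such progenitors, and 153 cells of the group had at least 2 Eomes UMIs. Median depth lay between 4829 UMIs per cell in inhibitory and 9739 in excitatory neurons. By the rule of the gates themselves, the 10 division genes summed to 5780 CPM (UMIs scaled to 1000000 UMIs of the group, mitochondrial genes left out) in dividing cells and 23.5 CPM in excitatory neurons, whereas the 7 excitatory markers summed to 2352 CPM in excitatory neurons and 115 CPM in dividing cells. With 1 library there is no replicate error and no test. Each level carries an exact Poisson interval, each share an exact Clopper-Pearson interval and each ratio an exact conditional interval, all at 95% and all covering counting error only. Below, "higher" and "lower" are written where the interval of the ratio leaves out 1.

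The exchange was marked in 3 of the 4 families between dividing cells and excitatory neurons. Of the 229 dividing cells, 57 had radial glia markers, 75 were of the oligodendrocyte lineage and 50 had inhibitory markers. The shares therefore compare groups of cells and do not follow 1 lineage. Actl6b made up 6.82% of Actl6a and Actl6b UMIs in dividing cells (4.51 to 9.84, 381 UMIs) and 75.4% in excitatory neurons (74.6 to 76.2, 11653 UMIs). Dpf1 and Dpf3 together made up 30.3% of the UMIs of the PHD-finger family in dividing cells (25.0 to 36.0) and 76.6% in excitatory neurons (75.8 to 77.3). Ss18l1 made up 14.3% of Ss18 and Ss18l1 UMIs in dividing cells (8.55 to 21.9) and 90.6% in excitatory neurons (89.4 to 91.7). The ATPases shifted less far, with Smarca2 at 21.9% of Smarca2 and Smarca4 UMIs in dividing cells (18.7 to 25.4) and 52.5% in excitatory neurons (52.0 to 53.1). When every cell was thinned to 2000 UMIs, the shares in dividing cells were 2.70% for Actl6b, 19.2% for Dpf1 and Dpf3 and 23.8% for Ss18l1. In that 1 draw, Actl6b was seen in 2 of 215 dividing cells and Ss18l1 in 5, so these shares rest on few UMIs. With dividing radial glia alone and no thinning, the shares were 3.70% for Actl6b, 20.0% for Dpf1 and Dpf3, 3.85% for Ss18l1 and 31.4% for Smarca2.

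**Figure D1:**
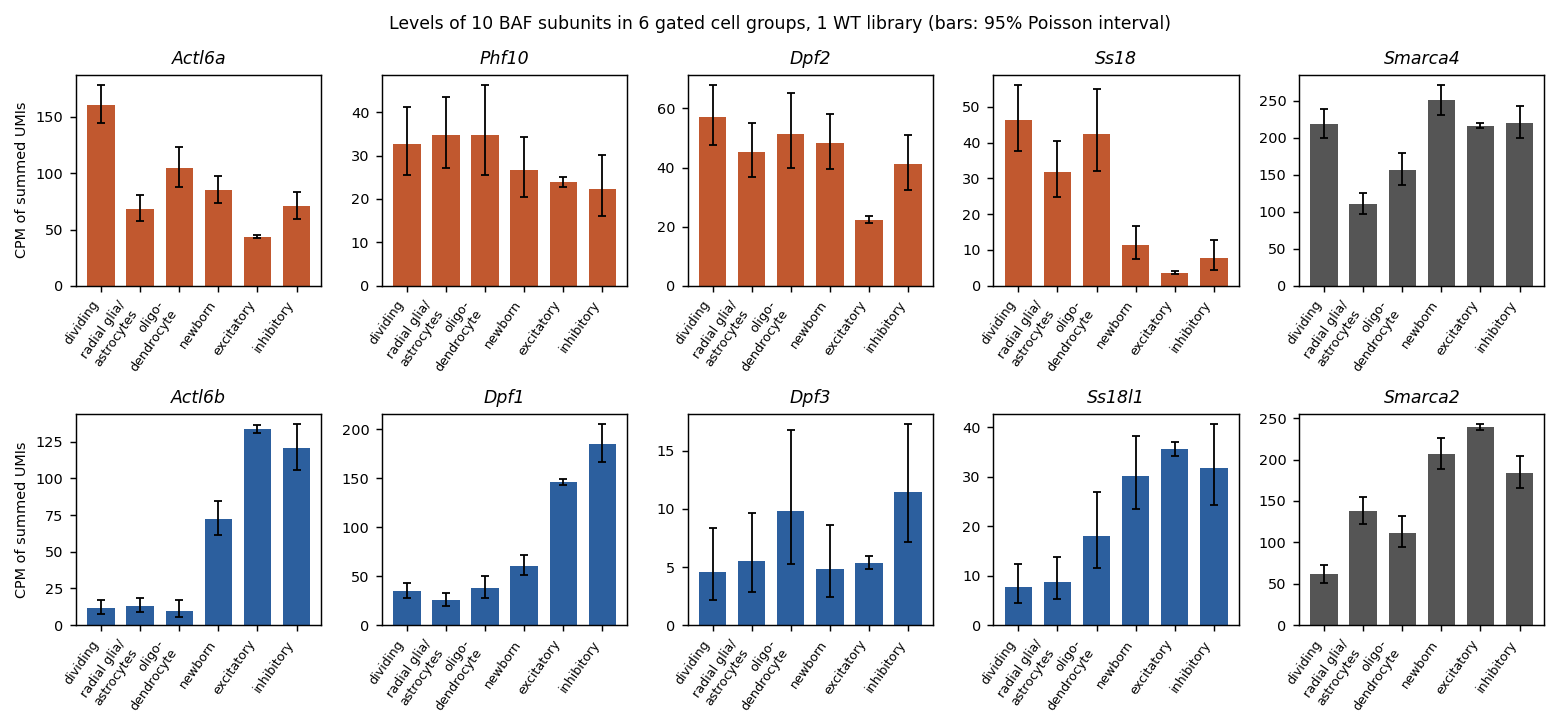
Level of each of the 10 subunits (vertical axis, CPM of summed UMIs, each panel on its own scale) in the 6 gated cell groups (horizontal axis). Upper row: Actl6a, Phf10, Dpf2, Ss18 (orange) and Smarca4 (grey). Lower row: Actl6b, Dpf1, Dpf3, Ss18l1 (blue) and Smarca2 (grey). Error bars are 95% Poisson intervals. Actl6a is highest in dividing cells (161 CPM). Actl6b is at 134 CPM in excitatory and 121 CPM in inhibitory neurons, which could not be told apart, and neither could any neighbouring levels of Phf10.

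By a fixed size of at least 2-fold, 4 of the 9 members with 10 CPM or more in either group (Actl6b, Dpf1, Ss18l1 and Smarca2) were higher in excitatory neurons than in dividing cells, beside 18.5% of the 10435 genes at that level. A further 3 of the 9 (Actl6a, Dpf2 and Ss18) were at least 2-fold lower, beside 20.9% of these genes. Phf10 and Smarca4 lay between the limits, and Dpf3 did not reach 10 CPM in either group. Newborn neurons differed from dividing cells at that size in fewer members: Actl6b, Ss18l1 and Smarca2 were higher (3 of 9, beside 14.7% of 10194 genes) and Ss18 was lower (1 of 9, beside 15.2%). The 9 genes were proposed with the exchange in mind, so these counts describe them and nothing more.

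Among the progenitor forms, Actl6a had its highest level in dividing cells. It was at 161 CPM there (145 to 179, 355 UMIs), 104 CPM in the oligodendrocyte lineage, 85.1 CPM in newborn neurons, 70.7 CPM in inhibitory neurons, 68.4 CPM in radial glia or astrocytes and 43.6 CPM in excitatory neurons. Excitatory neurons were thus 3.69-fold lower than dividing cells (3.30 to 4.13), and newborn neurons 1.89-fold lower (1.59 to 2.27). Among the 4 groups in the middle of that order, no group could be told from the next, although the oligodendrocyte lineage was 1.53-fold above radial glia or astrocytes (1.20 to 1.94). Actl6a was higher in dividing than in nondividing cells of 3 lineages: dividing cells with radial glia markers held 122 CPM against 68.4 CPM in nondividing ones (1.79-fold, 1.34 to 2.37), dividing cells of the oligodendrocyte lineage 174 against 104 CPM (1.67-fold, 1.31 to 2.12), and dividing cells with inhibitory markers 211 against 70.7 CPM (2.99-fold, 2.28 to 3.90). The 15 dividing cells with newborn-neuron markers (19 UMIs of Actl6a) could not be told from newborn neurons (1.44-fold, 0.848 to 2.31). At least 1 UMI of Actl6a was found in 36.4% of excitatory neurons, or 9.30% at 2000 UMIs per cell (8.58 to 10.1). Among 32 vascular cells these shares were 37.5% and 17.2% (5.85 to 35.8). Vascular cells held Actl6a at 68.8 CPM (15 UMIs), so they give no background for this gene. The part of free RNA in the excitatory share was not tested.

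miR-9-3p, also called miR-9*, is a microRNA of the developing brain known for repressing Actl6a together with miR-124 as progenitors become neurons. Its mature sequence is shown because the seed (bases 2 to 8) has a perfect match in Actl6a. The stretches around the matches in the annotated 3′ ends of Actl6a and Smarca2 are shown with it. In the first line below, capitals mark the seed, and in the other lines the 7 bases complementary to it (AGCTTTA). Sequences are from RefSeq (miRNA, GRCm38.p6) and from GENCODE M21 transcripts on GRCm38 (sites, all on the plus strand). The search was added after the levels had been seen.
mmu-miR-9-3p: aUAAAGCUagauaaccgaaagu
Actl6a 3′ end, chr3:32726640-32726646: cacctcaacgtctgtAGCTTTAg
Smarca2 3′ end, chr19:26777502-26777508: ttgtcatctagaactAGCTTTAg

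The coordinates give the matched bases, which begin 38 bases after the stop codon in Actl6a and 132 bases after it in Smarca2. These were the only 2 of the 10 members with such a match in the annotated end of the transcript examined, whereas 11.2% of 20708 genes had one. The miRNA was shown for its match in Actl6a, so the 2 of 10 cannot be weighed against that share. Actl6a, with a 3′ end of 371 bases, was 3.69-fold lower in excitatory neurons than in dividing cells. Smarca2, with a 3′ end of 951 bases, was 3.91-fold higher. Whether either match acts on its transcript was not tested. Actl6b, the neuronal partner of Actl6a, had none in its 196 bases. No level of the miRNA itself was measured. Mir9-3hg, the host transcript of its Mir9-3 locus, was at 210 CPM in dividing cells, 136 CPM in newborn neurons and 64.7 CPM in excitatory neurons. The Mir9-1 and Mir9-2 loci give the same mature sequence, and their host transcripts were not read.

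Ss18, which binds the ATPase core, had the steepest difference among the progenitor forms. It was at 46.3 CPM in dividing cells (102 UMIs), 42.3 CPM in the oligodendrocyte lineage and 31.9 CPM in radial glia or astrocytes, and then at 11.4 CPM in newborn neurons, 7.80 CPM in inhibitory neurons and 3.69 CPM in excitatory neurons (3.24 to 4.18, 242 UMIs). Excitatory neurons were 12.6-fold lower than dividing cells (9.87 to 15.9), and newborn neurons were already 4.06-fold lower (2.62 to 6.51). All 3 groups of dividing cells and glia lay above the newborn, inhibitory and excitatory groups. The interval between the lowest of the former and the highest of the latter left out 1. Dividing cells with inhibitory markers held 53.4 CPM against 7.80 CPM in inhibitory neurons, 6.84-fold (3.47 to 14.0), so the low level of Ss18 was shared by neurons of both kinds.

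Dpf2, the widely expressed PHD-finger form, was lowest in excitatory neurons. Dividing cells had 57.2 CPM, the oligodendrocyte lineage 51.4 CPM, newborn neurons 48.3 CPM, radial glia or astrocytes 45.3 CPM, inhibitory neurons 41.1 CPM and excitatory neurons 22.3 CPM. Neighbours in this order could not be told apart except the last pair, and inhibitory neurons were below dividing cells (ratio 0.718, 0.535 to 0.959). The ratio of excitatory to newborn neurons was 0.462 (0.380 to 0.566), whereas that of newborn neurons to dividing cells was 0.844 (0.647 to 1.10). Phf10, the progenitor-type PHD-finger form, showed no such step. Its levels ran from 34.8 CPM in the oligodendrocyte lineage to 22.4 CPM in inhibitory neurons, and no group could be told from the next. Excitatory neurons had 24.0 CPM and dividing cells 32.7 CPM, a ratio of 0.733 (0.579 to 0.942). Thinning every cell to 2000 UMIs turned this ratio to 1.18, in 1 draw with a Phf10 UMI in 10 of 215 dividing cells. Under the other processing settings it ran from 0.528 with dividing radial glia alone to 0.846 with the mean of single-cell CPM. The ratio thus stayed below 1 in every setting except the thinned draw, which rests on few UMIs.

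Among the neuronal forms, Actl6b had the largest ratio of excitatory neurons to dividing cells. It was at 134 CPM in excitatory neurons (131 to 137), 121 CPM in inhibitory neurons (106 to 137) and 72.4 CPM in newborn neurons (61.8 to 84.3), against 12.9 CPM in radial glia or astrocytes, 11.8 CPM in dividing cells (26 UMIs) and 9.82 CPM in the oligodendrocyte lineage (13 UMIs). Excitatory neurons were 11.3-fold higher than dividing cells (7.73 to 17.4), and newborn neurons 6.13-fold higher (4.04 to 9.67). Thinning to 2000 UMIs put the former at 27.8-fold. Inhibitory and excitatory neurons could not be told apart, and neither could the 3 groups at the low end. At 2000 UMIs per cell, 22.5% of excitatory neurons (21.4 to 23.5), 20.6% of inhibitory neurons and 8.65% of newborn neurons had a UMI of Actl6b, against 0.930% of dividing cells (0.113 to 3.32, 2 of 215 cells). Unthinned, these shares were 68.9% in excitatory neurons, 40.5% in inhibitory neurons, 35.1% in newborn neurons and 9.17% in dividing cells. In vascular cells, which should lack the gene, 0 of 29 thinned cells had a UMI of Actl6b, which allows a share of cells with a UMI of up to 10.3% (3 of 29 cells, the limit used here for a count of 0), at a median of 6566 UMIs per cell before thinning against 9601 in dividing cells and 9739 in excitatory neurons.

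Dpf1, the neuron-specific PHD-finger form, followed a similar order but began from a higher base. It was at 185 CPM in inhibitory neurons and 146 CPM in excitatory neurons, with the inhibitory level 1.27-fold higher (1.14 to 1.41), then at 60.5 CPM in newborn neurons and at 25.4 to 37.8 CPM in the 3 groups of dividing cells and glia, which could not be told from one another. The ratio of excitatory neurons to dividing cells was 4.23 (3.38 to 5.37), or 7.77 at 2000 UMIs per cell. Newborn neurons were 1.76-fold above dividing cells (1.32 to 2.35), and excitatory neurons 2.41-fold above newborn neurons (2.04 to 2.87). Ss18l1, which encodes the calcium-responsive transactivator CREST, had its larger step earlier in this order. It was at 7.72 CPM in dividing cells (17 UMIs), 30.3 CPM in newborn neurons and 35.6 CPM in excitatory neurons, so that newborn neurons were 3.92-fold above dividing cells (2.28 to 7.12) while excitatory and newborn neurons could not be told apart (ratio 1.17, 0.924 to 1.52).

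The oligodendrocyte lineage held more Ss18l1 than radial glia or astrocytes and than dividing cells. Its 18.1 CPM (24 UMIs) was 2.07-fold above radial glia or astrocytes (1.09 to 3.99) and 2.35-fold above dividing cells (1.21 to 4.66), but it could not be told from the 9.85 CPM of the dividing cells of its own lineage (ratio 1.84, its interval holding 1). At 2000 UMIs per cell, 3.43% of its cells had an Ss18l1 UMI (1.27 to 7.31). The shares were 1.02% (0.211 to 2.95) in radial glia or astrocytes and 2.33% (0.759 to 5.34) in dividing cells, and these intervals overlap. Dpf3, known mainly from heart and skeletal muscle as well as neurons, was the rarest member, with 473 UMIs in 3.91% of all cells. It was at 4.54 CPM in dividing cells (10 UMIs), 4.83 CPM in newborn neurons (11 UMIs) and 5.34 CPM in excitatory neurons (351 UMIs). Radial glia or astrocytes held 5.54 CPM (12 UMIs), the oligodendrocyte lineage 9.82 CPM (13 UMIs) and inhibitory neurons 11.4 CPM (22 UMIs). Inhibitory neurons could not be told from the oligodendrocyte lineage. The ratio of excitatory neurons to dividing cells held 1 (1.18, 0.633 to 2.48), and inhibitory neurons were 2.14-fold above excitatory ones (1.32 to 3.29). Thinning to 2000 UMIs put the former ratio at 2.49, so the 10 UMIs in dividing cells do not settle it. In excitatory neurons, Dpf1 made up 73.9% of the family's UMIs and Dpf3 2.71%.

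**Figure D2:**
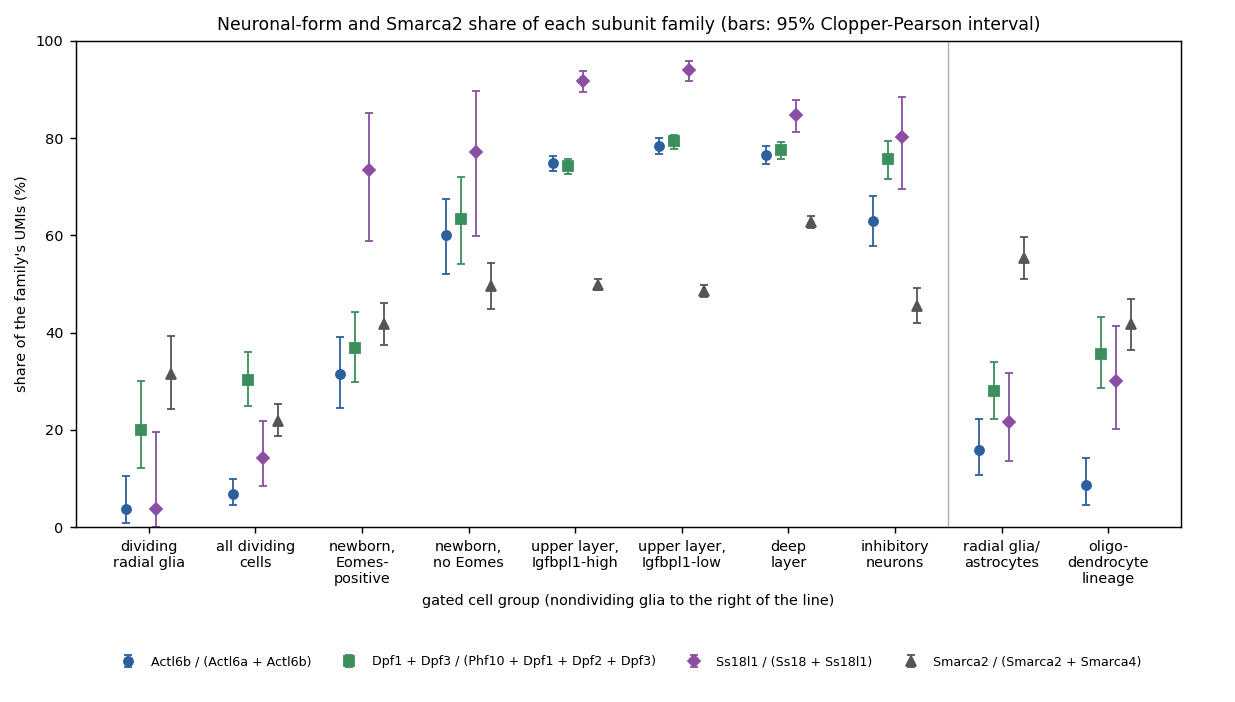
Share of each family's UMIs (vertical axis, %) that came from the neuronal form, or from Smarca2 for the ATPases, in 10 gated cell groups (horizontal axis), with 95% Clopper-Pearson intervals. Ss18l1 stands at 73.5% in Eomes-positive newborn neurons, where Actl6b is at 31.6%, and the 2 glial groups right of the line hold Smarca2 shares of 55.4% and 41.7% beside Actl6b shares of 15.9% and 8.61%.

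The ATPases took different courses. Smarca4 was abundant throughout, at 251 CPM in newborn neurons, 220 CPM in inhibitory neurons, 219 CPM in dividing cells, 216 CPM in excitatory neurons, 156 CPM in the oligodendrocyte lineage and 111 CPM in radial glia or astrocytes. Dividing cells and excitatory neurons could not be told apart (ratio 0.988, 0.902 to 1.08), and radial glia or astrocytes were 1.97-fold lower than dividing cells (1.69 to 2.31). Smarca2 was lowest in dividing cells, at 61.3 CPM (51.4 to 72.5), and higher in every other group: 112 CPM in the oligodendrocyte lineage, 138 CPM in radial glia or astrocytes, 184 CPM in inhibitory neurons, 207 CPM in newborn neurons and 239 CPM in excitatory neurons. The difference was therefore not restricted to neurons. Within the radial glia gate, nondividing cells held 1.79-fold more Smarca2 (1.32 to 2.48) and 1.51-fold less Smarca4 (1.19 to 1.91) than dividing ones. Within the oligodendrocyte lineage, nondividing cells likewise held 1.93-fold more Smarca2 (1.38 to 2.74) and 1.49-fold less Smarca4 (1.22 to 1.82). Shares of cells with a UMI at 2000 UMIs per cell did not show these differences in the radial glia gate, with Smarca2 in 21.8% of nondividing (17.2 to 26.9) and 19.6% of dividing cells (10.2 to 32.4) and Smarca4 in 21.1% and 21.4%. In the oligodendrocyte lineage they were 24.6% and 13.3% for Smarca2 and 25.1% and 41.3% for Smarca4. The median depth of nondividing and dividing cells was 7162 and 12148 UMIs in the radial glia gate and 7288 and 10900 UMIs in the oligodendrocyte lineage.

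Newborn neurons were intermediate, so they were divided by Eomes, the T-box factor of intermediate progenitors, into 153 cells with at least 2 Eomes UMIs and 107 cells with none. This split was added after the levels of the whole newborn group had been seen. Actl6b was at 43.3 CPM in Eomes-positive cells (53 UMIs) and 115 CPM in cells without Eomes (99 UMIs), a 2.65-fold difference (1.88 to 3.78), and the latter could not be told from young upper-layer neurons at 131 CPM (ratio 1.14, 0.929 to 1.40). Dpf1 was 1.63-fold higher without Eomes (82.4 against 50.6 CPM, 1.14 to 2.33), Smarca2 1.47-fold higher (255 against 174 CPM, 1.21 to 1.78), and Dpf2 2.20-fold lower (29.0 against 63.7 CPM, 1.39 to 3.60). For Ss18 and Ss18l1, the 2 newborn groups could not be told apart. Ss18 was at 10.6 CPM with Eomes (5.65 to 18.2, 13 UMIs) and 9.28 CPM without (4.01 to 18.3, 8 UMIs). So few UMIs do not exclude a step as large as that of Dpf2. Ss18l1 was at 29.4 CPM (36 UMIs) and 31.3 CPM (27 UMIs), and the intervals of both ratios held 1. The Ss18l1 share was 73.5% (58.9 to 85.1) in Eomes-positive cells, whereas the Actl6b share was 31.6% (24.6 to 39.2) and the Dpf1 and Dpf3 share 36.8% (29.8 to 44.3). Without Eomes these shares were 77.1%, 60.0% and 63.3%.

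Actl6a could not be told apart between the newborn groups (93.9 CPM with and 76.6 CPM without Eomes, ratio 0.815, 0.593 to 1.11). Cells without Eomes still held 1.74-fold more of it than young upper-layer neurons (1.33 to 2.24). Upper-layer neurons were gated among excitatory neurons by the summed UMIs of Cux1, Cux2, Rorb, Inhba and Mdga1. Cux1 was at 255 CPM in excitatory neurons and 241 CPM in dividing cells, so it does not mark these layers by itself. The upper-layer neurons with at least 5 UMIs of Igfbpl1, a gene of young neurons, numbered 1627, and those with fewer numbered 1246. Between these groups Actl6b was at 131 CPM in both (interval of the ratio 0.945 to 1.07). Dpf1 was the 1 member that was higher with low Igfbpl1, at 155 CPM against 145 CPM. Several members were lower with low Igfbpl1, with Ss18l1 at 37.7 and 33.0 CPM (1.14-fold, 1.02 to 1.28), Actl6a at 43.9 and 36.0 CPM (1.22-fold, 1.09 to 1.36), Dpf2 at 26.6 and 18.1 CPM (1.47-fold, 1.26 to 1.71) and Ss18 at 3.37 and 2.09 CPM (1.61-fold, 1.03 to 2.55). The median ratio of low to high Igfbpl1 was 0.855 over 20 of the other subunits and 0.973 over 9026 genes at 10 CPM or more in either group, so the lower values were not restricted to the progenitor forms. Phf10 again could not be told apart (25.4 and 23.3 CPM). Smarca2 (232 and 193 CPM) and Smarca4 (234 and 205 CPM) were also lower with low Igfbpl1, and the median depth of these groups was 8807 and 12157 UMIs per cell.

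Deep-layer neurons (1058 cells with Fezf2, Tle4, Foxp2, Crym and Hs3st4) were compared with upper-layer neurons low in Igfbpl1. Smarca2 was at 334 CPM against 193 CPM, 1.73-fold higher (1.65 to 1.81), while Smarca4 was at 198 and 205 CPM and could not be told apart, so that the Smarca2 share was 62.8% in deep and 48.6% in upper layers. Dpf3 was at 10.3 CPM (120 UMIs) against 3.74 CPM (59 UMIs), 2.76-fold higher (2.004 to 3.83), which made deep layers the one excitatory group in which Dpf3 passed 10 CPM. Ss18 was at 6.19 CPM (72 UMIs) against 2.09 CPM (33 UMIs), 2.96-fold higher (1.93 to 4.61), and the Ss18l1 share was 84.8% (81.3 to 87.9) against 94.0% (91.7 to 95.9). Actl6a was 1.23-fold (1.09 to 1.39), Dpf2 1.20-fold (1.01 to 1.43) and Actl6b 1.10-fold higher, and Dpf1 was 1.07-fold lower. Phf10 and Ss18l1 could not be told apart. The deep-layer group was not split by Igfbpl1, and no ratio was taken against upper-layer neurons high in Igfbpl1. Those held Actl6a at 43.9 CPM, Dpf2 at 26.6 CPM and Dpf1 at 145 CPM, against 44.2, 21.8 and 144 CPM in deep layers. Their Smarca2 was at 232.5 CPM, Dpf3 at 3.78 CPM and Ss18 at 3.37 CPM. The differences in Actl6a and Dpf2 thus depend on the upper-layer group compared.

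The dividing cells were of several kinds. The 57 dividing radial glia had Actl6b at 3.70% (0.770 to 10.4, 3 of 81 UMIs), Ss18l1 at 3.85% (0.0973 to 19.6, 1 of 26 UMIs) and Dpf1 and Dpf3 at 20.0% (12.1 to 30.1). The 75 dividing cells of the oligodendrocyte lineage had Actl6b at 4.73%, Ss18l1 at 15.4% and Dpf1 and Dpf3 at 32.3% (23.1 to 42.6). The 50 dividing cells with inhibitory markers had Actl6b at 10.8% (5.71 to 18.1), Ss18l1 at 7.41% (0.910 to 24.3) and Dpf1 and Dpf3 at 39.7% (28.0 to 52.3), and their Actl6b level of 25.6 CPM (12 UMIs) was 5.45-fold above that of dividing radial glia, an interval of 1.47 to 30.1 set by 3 UMIs. Their Smarca2 share was 15.3%, against 31.4% in dividing radial glia. Dpf1 was at 53.4 CPM (25 UMIs) against 21.9 CPM (14 UMIs), and Actl6a at 211 against 122 CPM. By the interval of the ratio, 4 members were higher in dividing cells with inhibitory markers than in dividing radial glia, and 6 could not be told apart. Among the other subunits of the complex, 11 were higher, 9 could not be told apart and 1 was lower. The intervals of the Actl6b, Ss18l1 and PHD-finger shares overlap among the 3 kinds.

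Free RNA from lysed neurons can give UMIs in droplets of other cells, so the low values of the neuronal forms were set beside transcripts that those cells should lack. In dividing cells, Neurod2 and Neurod6, transcription factors of excitatory neurons, stood at 4.97% and 4.98% of their excitatory level, while Actl6b stood at 8.82%, Ss18l1 at 21.7% and Dpf1 at 23.7%. In dividing radial glia, the 7 excitatory markers stood at 2.73%, Actl6b at 3.51%, Ss18l1 at 4.40% and Dpf1 at 15.03%. In the oligodendrocyte lineage, the markers stood at 5.46%, Actl6b at 7.34%, Dpf1 at 25.9% and Ss18l1 at 51.0%. Among 32 vascular cells (median 6566 UMIs per cell), a group added after the levels were seen, the markers stood at 4.29%. Actl6b had 0 of 217887 UMIs there, which allows up to 13.8 CPM (3 counts), while Dpf1 had 3 UMIs (13.8 CPM) and Ss18l1 had 1 UMI (4.59 CPM). The level of the markers in these groups is capped by the gates, since cells with 8 or more of their UMIs were kept out, whereas the members had no such limit, so a member above the markers is not thereby above free RNA. Dpf1 and Ss18l1 in the oligodendrocyte lineage could not be told from their levels in vascular cells (ratios 2.74 and 3.95, both intervals holding 1). The part of free RNA in each low value was not tested.

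**Figure D3:**
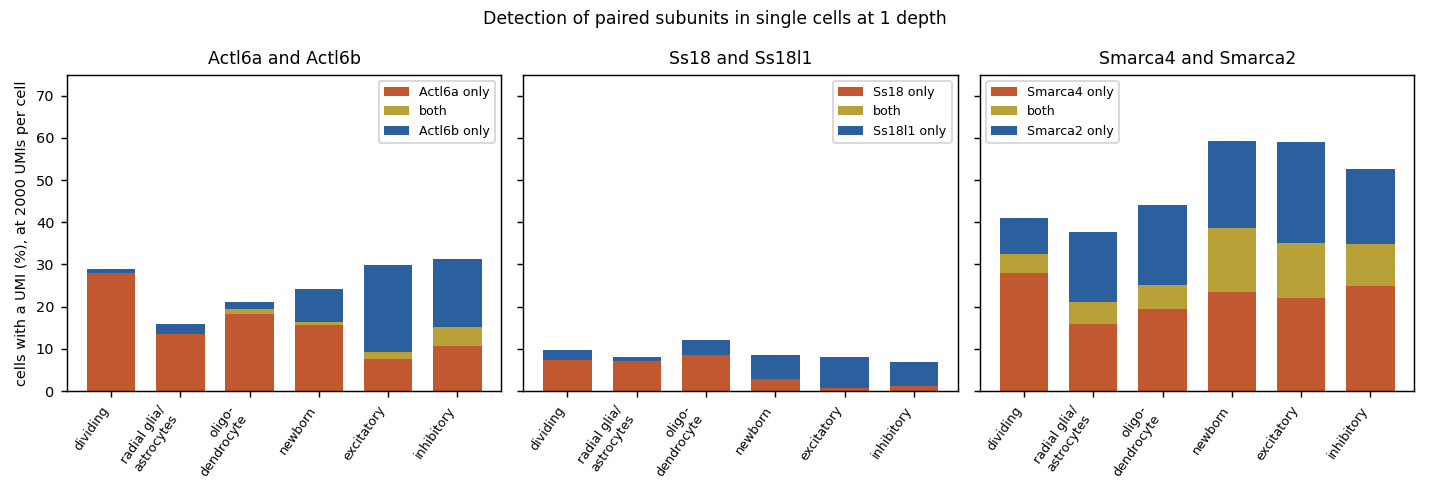
Share of cells (vertical axis, %) with a UMI of 1 or both forms of 3 subunit pairs when each cell was thinned to 2000 UMIs, in the 6 gated cell groups (horizontal axis). Cells with neither form fill the rest to 100%. Actl6a only is found in 27.9% of dividing cells and 7.50% of excitatory neurons, and Actl6b only in 0.930% and 20.7%.

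Single cells were examined for both forms at once, thinned to 2000 UMIs each. Actl6a alone was seen in 60 of 215 dividing cells (27.9%), Actl6b alone in 2 and both in 0, which allows a share of cells with UMIs of both of up to 1.40% (3 of 215 cells). Among 6057 excitatory neurons, 454 had Actl6a alone (7.50%), 1252 had Actl6b alone (20.7%) and 109 had both (1.80%). Without thinning, 26.6% of excitatory neurons and 20.3% of newborn neurons had UMIs of both forms, and 6.11% of dividing cells did. Transcripts of the progenitor and the neuronal form were thus found under the same barcode in some neurons at either depth. The part of free RNA and of doublets in these barcodes was not tested. Smarca2 and Smarca4 were seen together more often even at 2000 UMIs, in 13.1% of excitatory neurons, 15.2% of newborn neurons and 4.65% of dividing cells. Ss18 and Ss18l1 were seen together in 2 of 6057 excitatory neurons, with Ss18 alone in 47 and Ss18l1 alone in 438. A joint share depends on how often each form is seen at all. None was compared with the share expected from the single forms, so these values show neither pairing nor exclusion.

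**Figure D4:**
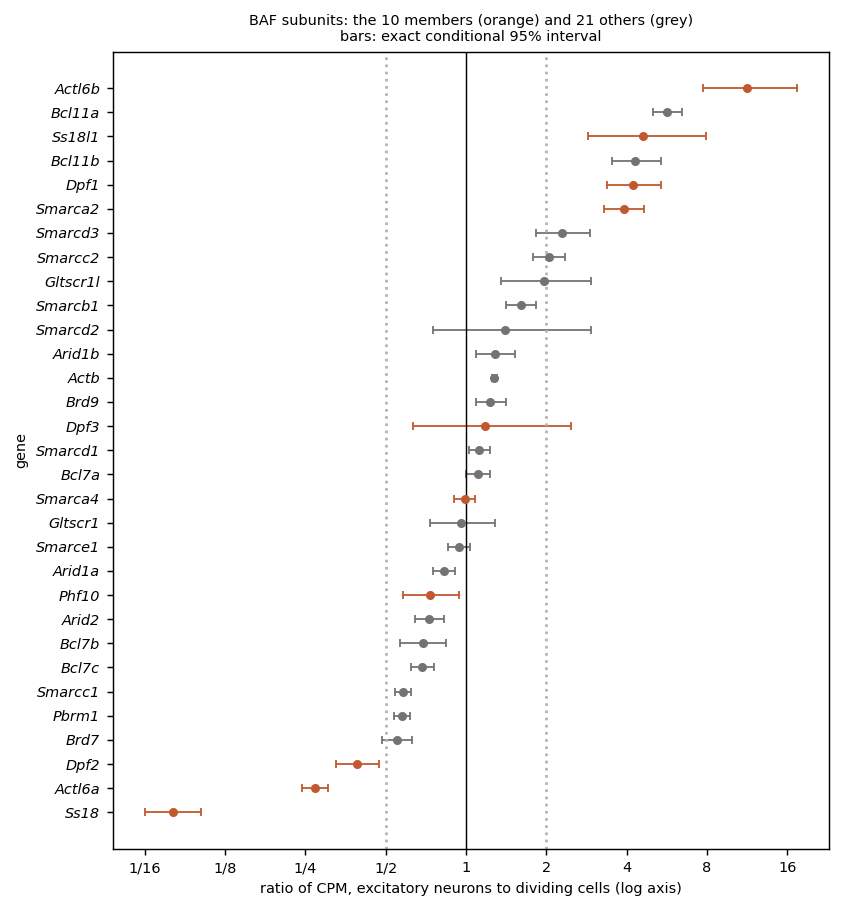
Ratio of CPM in excitatory neurons to dividing cells (horizontal log axis) for the 10 members (orange) and 21 other BAF subunit genes (grey), one gene per row (vertical axis), with exact 95% intervals. Dotted lines mark 2-fold in each direction. Ss18, Actl6a and Dpf2 lie left of the lower line and no grey point does, and Actl6b is the rightmost at 11.3.

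The other subunits of the complex were listed for comparison, 21 genes in all with 20 at 10 CPM or more in either group. Between dividing cells and excitatory neurons, 4 of the 20 were at least 2-fold higher, 0 were 2-fold lower and 16 lay between, beside 18.5% of all genes at that level higher and 20.9% lower. The share of higher subunits was thus near that of all genes. The 4 were Bcl11a (117 and 663 CPM) and Bcl11b (41.3 and 178 CPM), zinc-finger subunits that are also fate determinants of cortical neurons, and the scaffold and accessory subunits Smarcc2 (97.1 and 199 CPM) and Smarcd3 (34.0 and 78.1 CPM). The same 4 were at least 2-fold higher in newborn neurons. Smarcc1, the alternative to Smarcc2, was 1.73-fold lower in excitatory neurons (407 and 236 CPM), a ratio of 0.579 (0.541 to 0.620). Pbrm1 and Brd7, subunits of the related PBAF complex to which Phf10 also belongs, had ratios of 0.575 and 0.550. Core subunits such as Smarce1 (ratio 0.940, 0.853 to 1.04) and Arid1a (0.828) stayed within these limits. Smarcd3 was also 2.08-fold higher in deep than in upper layers, where Smarca2 and Dpf3 were higher.

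Regulators known to act on the exchange were read from the same cells. Rest, the repressor of neuronal genes, was at 46.3 CPM in dividing cells, 94.2 CPM in radial glia or astrocytes and 63.5 CPM in the oligodendrocyte lineage, and at 5.27 CPM in newborn neurons, 10.5 CPM in excitatory neurons and 7.80 CPM in inhibitory neurons. Ptbp1, the splicing repressor of progenitors, was at 104 CPM in dividing cells and 21.5 CPM in excitatory neurons (ratio 0.208). Mir124a-1hg, a host transcript of miR-124, was at 11.8 and 46.5 CPM in the same groups (ratio 3.94), and Mir124-2hg, another, at 74.9 and 138 CPM (ratio 1.84). Rcor2, a corepressor partner of Rest, was highest in newborn neurons at 146 CPM. Of the 8 regulators, 1 was at least 2-fold higher in excitatory neurons, 4 were at least 2-fold lower and 3 lay between, beside the same 18.5% and 20.9% of all genes.

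Promoter windows (250 bases before to 50 after the start, RefSeq, GRCm38.p6) were read for 9 members. E-boxes of the form CAGATG or CAGCTG, the E2F motif TTTCCCGC and the REST half-site TTCAGCACC were searched on both strands. The single match was CAGCTG in Phf10, at 180 bases before the start. Over all 32851 windows, the shares with a match were 17.2%, 16.3%, 1.07% and 0.371%. The windows of the 9 members held 55.3% to 87.0% G and C, all above the median of 52.7% over all windows.

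For each of the 8 exchange members, the genes with the most similar pattern were sought among 8769 genes by Pearson correlation of log2(CPM + 10) over the gated groups. These correlations describe a few groups of cells from 1 library and carry no test. With newborn neurons split or whole (12 or 11 groups), Mllt11 (r = 0.995 over 12 groups) and Pak1 (0.992) were among the 3 most similar to Actl6b, Nrf1 (0.985) and Topors (0.984) to Actl6a, and Csrnp3, Gng2 and Cacna1b (0.985, 0.984 and 0.984) to Dpf1. Likewise among the 3 most similar under both were Nudt5 (0.980) and Myh9 (0.976) for Ss18, Rph3a (0.942) and Xkr6 (0.929) for Dpf3, and Prpf38b (0.959) for Dpf2. None of the 3 nearest genes of Phf10 or Ss18l1 was shared by the 2 sets of groups. Mllt11, picked for its likeness to Actl6b, had 95.3 CPM in dividing cells, 521 CPM in newborn neurons and 1000 CPM in excitatory neurons.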

How the data were processed

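The WT table that the authors deposited holds raw UMI counts with no normalization. A second deposited table of UMI and gene counts per cell equalled its sums. The submitters' processing notes name STAR, Cell Ranger 2, Seurat and the mm9 build, with no role for each. Sequences were matched by symbol to RefSeq (GRCm38.p6) and GENCODE M21, and no coordinate of the deposited files was used.

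A minimum of 200 detected genes removed 4 cells and kept 11058. Gates were cuts on summed marker UMIs: 5 for dividing, oligodendrocyte, radial glia or astrocyte, newborn and upper-layer markers and for Igfbpl1, 8 for excitatory and deep-layer markers, and 6 for inhibitory markers. The cuts were set from the distributions of these sums, without the levels of the members. Dividing cells could also pass a glial, newborn or inhibitory gate but not the excitatory one, and newborn neurons could pass the excitatory gate. No doublet caller was run. In its place, 259 cells that passed a combination of gates that no group allows (median 15633 UMIs) were set aside. Such combinations include dividing with excitatory markers and radial glia with newborn markers, so cells between stages may be among them. Also set aside were 178 cells with at least 5 UMIs of markers of other cell types. A further 3122 cells passed no gate (median 1254 UMIs, 14.0% mitochondrial). Vascular cells had at least 10 UMIs of 6 endothelial and pericyte markers. The barcodes of the library held 0 repeats.

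UMIs were summed over each group and divided by its UMIs without the 37 mitochondrial genes (CPM). UMIs tag 1 end of a transcript, so CPM does not scale with transcript length. Thinning to 2000 UMIs was 1 random draw and left out shallower cells (14 of 229 dividing, 42 of 6099 excitatory, 2 of 291 newborn and 33 of 368 inhibitory). The code for the ratios was tested on simulated data with known folds. Named genes were the members, fixed lists of other subunits (21 found, Bicra and Bicral under the older names Gltscr1 and Gltscr1l) and of 8 regulators, and the 3 genes most similar to each exchange member among those with at least 1000 UMIs, without gate markers. Python 3.11.15, numpy 2.4.6, scipy 1.17.1 and pandas 2.3.3 were used.

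The members, gene lists and marker lists were chosen with earlier results of these data known. The split of newborn neurons by Eomes, the vascular group, the miR-9-3p search and the second set of groups for the correlations were added after the levels were seen.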

Additional observations from a re-analysis of the deposited data

How the results depend on the processing

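Of 178 values recomputed under 8 planned settings and 3 settings chosen after seeing the data, 152 stayed within the counting interval of the reported value. Thinning to 2000 UMIs in 1 draw moved the Actl6b share to 72.3% in excitatory neurons and 2.70% in dividing cells, the Dpf1 and Dpf3 share to 73.8% and 19.2%, and the Ss18l1 share in dividing cells to 23.8%. It also turned the Phf10 ratio to 1.18. With dividing radial glia alone, the shares in dividing cells were 3.70% for Actl6b, 20.0% for Dpf1 and Dpf3, 3.85% for Ss18l1 and 31.4% for Smarca2. In excitatory neurons, doubled cuts gave an Actl6b share of 76.4%, the mean of single-cell CPM gave 73.0% for Actl6b and 74.8% for Dpf1 and Dpf3, and leaving out cells above the 95th percentile of UMIs gave 75.8% for Dpf1 and Dpf3. Over these settings, the ratio of excitatory neurons to dividing cells ranged from 9.17 to 28.5 for Actl6b, 4.14 to 7.77 for Dpf1, 3.22 to 22.7 for Ss18l1, 1.11 to 2.49 for Dpf3 and 0.0761 to 0.109 for Ss18. In all 12 ratios that moved besides that of Phf10 under thinning, the side of 1 was kept except for Smarca4, at 1.29 with dividing radial glia alone, whose reported interval held 1. Why a setting moved a value was not tested. No paired analysis was possible because there is 1 library. Counting depth limits Dpf3, Ss18l1 and Actl6b most in dividing cells, with 10, 17 and 26 UMIs.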
